A study of Homo sapiens with 15 samples.

Results

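The genes described here are 50 genes of ribosome biogenesis, chosen by symbol as genes of the nucleolus, of rRNA processing and of RNA polymerase I, in MDA-MB-468 breast cancer cells. All 50 were found by Ensembl gene ID among the 61552 genes of the deposited count table. The rule names genes by function and uses no measured value, though it was set with earlier results of these data known. Ribosomes are built in the nucleolus, where RNA polymerase I copies the ribosomal DNA into a long precursor RNA. Small nucleolar ribonucleoproteins (snoRNPs) guide the chemical marking of this RNA, and successive sets of assembly factors fold and cut it while ribosomal proteins are added, giving the small and the large subunit. Growth factor signalling through the ERK and mTOR kinases is known to raise the output of this pathway, and many of its genes are known targets of the transcription factor MYC.

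The established human cell line MDA-MB-468 comes from a breast cancer and has a high level of EGFR, the receptor of epidermal growth factor (EGF). Polyadenylated RNA was sequenced in 15 libraries, 3 in each of 5 groups. In the drug experiment, cells were starved of serum for 12 h and stimulated with 10 ng/mL EGF, and were then given nothing more (EGF), 10 μM of the peptide cSNX1.3 (labelled cSNX) or 15 μM of erlotinib (labelled ERL) for 12 h. cSNX1.3 keeps EGFR from binding Sorting Nexin 1, and erlotinib inhibits the EGFR tyrosine kinase. In the line experiment, endogenous EGFR was knocked down with an IPTG-inducible short hairpin RNA (1 mM IPTG) carried by a lentivirus with puromycin resistance, and a GFP-tagged EGFR was transfected, either wildtype (labelled shEGFR-WT, here WT) or with 3 residues of its nuclear localization sequence mutated to aspartic acid (labelled shEGFR-NLS, here ΔNLS). Both lines were treated with EGF. The labels and methods do not say whether each line is a single clone or whether replicates were separate cultures, so the p-values measure the spread between these libraries, which may be technical. No library of unstimulated cells, of a control peptide or of cells with a nonspecific hairpin was analysed here.

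Counts on genes summed to between 22915676 and 35900649 per library, and the 50 genes held between 0.576% and 0.818% of them. EGFR itself had 4197 to 4950 CPM (counts scaled to a common library size) with EGF alone, 5664 to 6449 with cSNX1.3 and 4517 to 4974 with erlotinib. In the lines it had 1168 to 1467 CPM in WT and 1711 to 1781 CPM in ΔNLS, on a scale set separately for the lines, and these reads come from the endogenous and the introduced gene together, so they are no check of the knockdown. The epithelial markers EPCAM, KRT8, KRT18, KRT19 and CDH1 were present in every library, and the 4 leukocyte markers examined had at most 20 counts in any library. Of the 5 epithelial markers, 2 were lower and 1 higher with erlotinib, 1 was higher with cSNX1.3 and 4 were lower in ΔNLS. All 3 endothelial markers examined had enough counts to be tested, and 1 was higher with erlotinib and 1 in ΔNLS. Of 4 fibroblast markers, 1 was tested in each experiment, and it was lower with erlotinib and in ΔNLS. The part of these markers in the results below was not tested. In bulk RNA, a smaller share of cells with a transcript and less of it per cell cannot be told apart.

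With EGF alone, the levels of the 50 genes spanned a wide range per unit of exonic length. This length joins all annotated exons of a gene and can exceed that of the transcripts present. It was 8311 bases for NPM1 and 2138 for FBL, so the order of the genes below depends on the annotation. NPM1 (nucleophosmin, an abundant histone and ribosomal protein chaperone) had 287.9 CPM per kilobase (kb) and FBL (fibrillarin, the methyltransferase of box C/D snoRNPs) 278.2 CPM per kb. They were followed by NCL (nucleolin) with 120.2 and NHP2 with 114 CPM per kb. At the other end stood UTP20, a scaffold of the early small subunit particle, with 2.24 CPM per kb and NOP2, an rRNA methyltransferase of the large subunit, with 0.117 CPM per kb. NOP2 was thus the only one of the 50 below 1 CPM per kb. Its 12 to 17 counts per EGF library are few, and 54.4% of its exonic bases are shared on the same strand with the gene ENSG00000285238, which had at most 1 count in any library, so reads in the shared bases cannot be given to 1 gene by position. PPAN shares 49.2% of its exonic bases with the readthrough gene PPAN-P2RY11 (0 to 6 counts) and LTV1 34.7%, and 10 of the 50 genes hold 36 snoRNA genes inside them.

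Erlotinib lowered most of the 50 genes. Differences were tested with edgeR's quasi-likelihood test, and a gene is called where its Benjamini-Hochberg adjusted p over all genes tested is under 0.05. SE stands for the standard error of a log2 fold change. In erlotinib vs. EGF, 42 of the 50 were called lower and 0 higher, where 21.2% of all 15738 tested genes were called lower and 22.8% higher. At an unadjusted p under 0.05 the count higher was also 0, where 8088 of all tested genes passed in either direction. With DESeq2 it was 0, against 3369 called higher over all tested genes. The log2 fold changes of the 50 genes had a median of -0.54 and ran from -1.65 to 0.15, against a median of 0.01 over all tested genes. All 3 box C/D proteins, all 4 box H/ACA proteins and 14 of 15 large subunit factors were called lower, as were 12 of 15 small subunit factors, 2 of 3 nucleolar phosphoproteins and 7 of 10 genes of the polymerases and their factors. In 45 of the 50 genes every erlotinib library was below every EGF library, as was so for 24.8% of all tested genes.

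**Figure D1:**
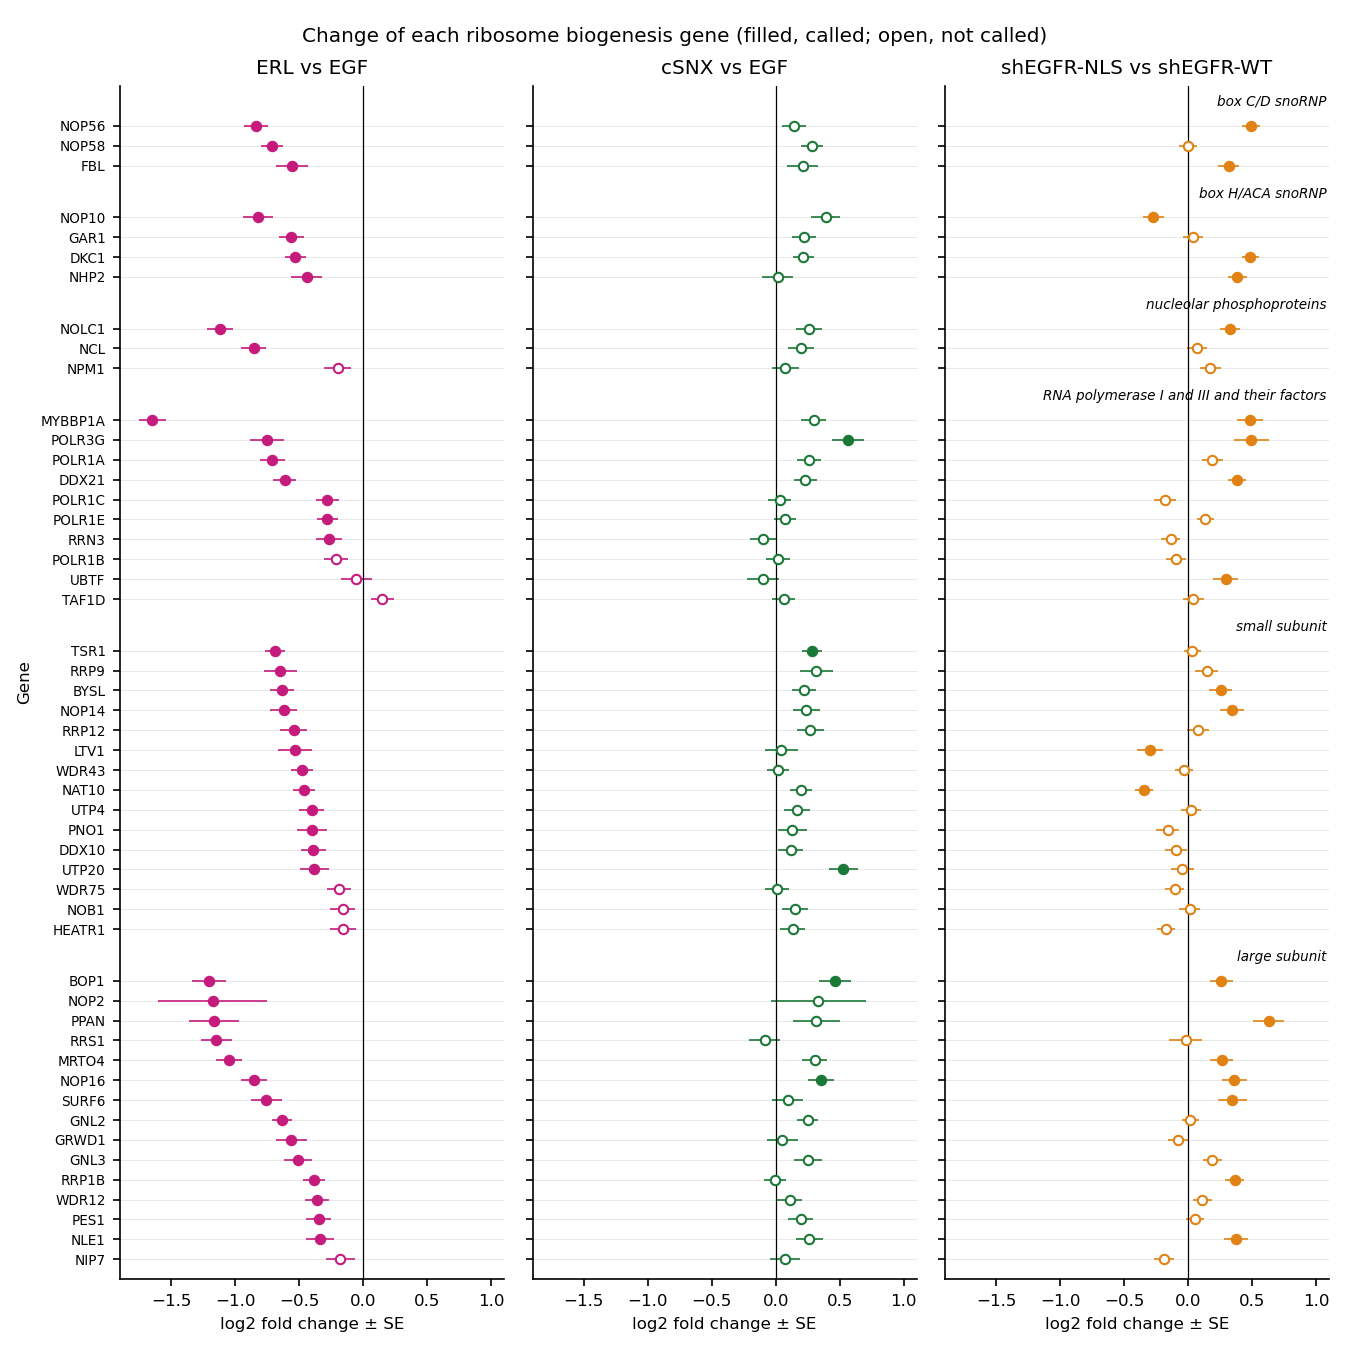
Log2 fold change of each gene with its standard error in erlotinib vs. EGF (ERL, left), cSNX1.3 vs. EGF (cSNX, middle) and ΔNLS vs. WT (right), grouped by role and ordered by the erlotinib change, with filled points for called genes. With erlotinib 49 of 50 points lie below 0 and 42 are called, with cSNX1.3 46 of 50 lie above 0 and 5 are called, and in ΔNLS 18 are called higher and 3 lower. NOP2 was not tested in the lines.

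Among the genes of transcription by RNA polymerases I and III, MYBBP1A changed most. MYBBP1A (ENSG00000132382, GRCh38 chromosome 17, 4538897 to 4555386, minus strand) encodes a nucleolar protein that binds MYB and takes part in rRNA synthesis. Its level was 50.8, 47.1 and 54.0 CPM in the EGF libraries and 15.2, 14.6 and 18.7 CPM in the erlotinib libraries. The erlotinib libraries were all below the EGF libraries, and the log2 fold change was -1.65 (SE 0.10, edgeR adjusted p = 6.97e-09). POLR1A, the largest and catalytic subunit of RNA polymerase I, fell by 0.71 on the log2 scale, DDX21, a nucleolar RNA helicase, by 0.62, and POLR3G, a subunit of RNA polymerase III, by 0.75. POLR1C, which RNA polymerases I and III share, and POLR1E fell by 0.28 each, and RRN3, which recruits RNA polymerase I to its promoter, by 0.27. POLR1C lost its call without EGF replicate 2 (-0.25). RRN3 lost its call without erlotinib replicate 1 (-0.17) or 2 (-0.29), without EGF replicate 1 (-0.30), 2 (-0.23) or 3 (-0.30), and with the replicate number as a block (-0.27). The second largest subunit POLR1B (-0.21), the promoter-binding factor UBTF (-0.05) and TAF1D (0.15), a subunit of the SL1 promoter complex, were not called. TAF1D was the 1 gene of the 50 with a value above 0.

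**Figure D2:**
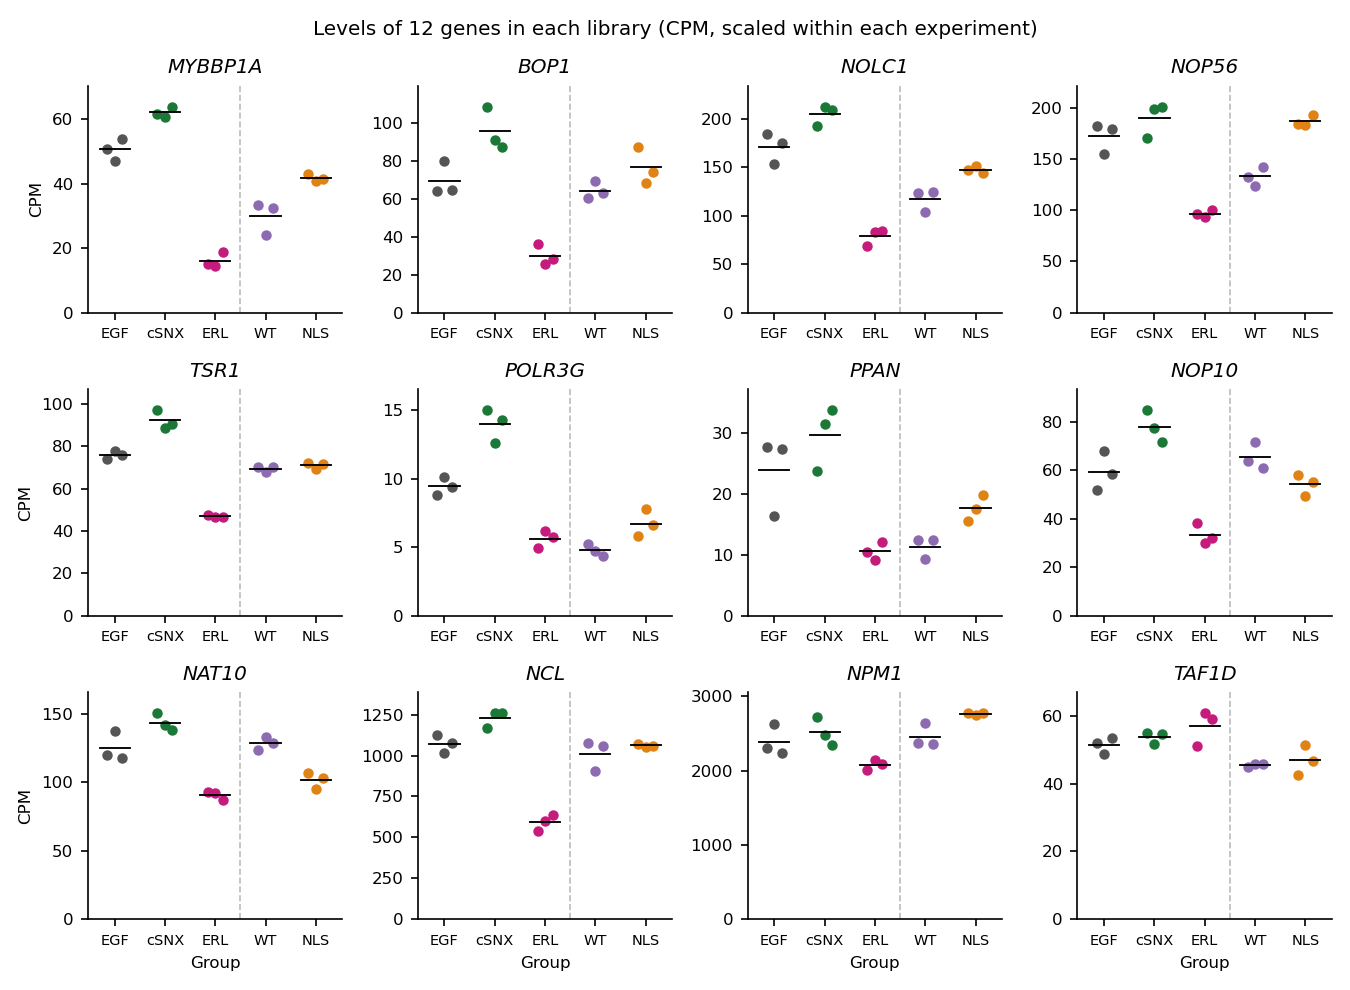
Level in CPM of 12 of the genes in each library, with the mean of each group as a line. The drug experiment (EGF, cSNX, ERL) and the line experiment (WT, NLS) are scaled separately and are divided by a dashed line. MYBBP1A had 14.6 to 18.7 CPM with erlotinib against 47.1 to 54.0 CPM with EGF, while the TAF1D libraries of these groups overlapped.

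The snoRNP proteins fell together. NOP56, a core box C/D protein (ENSG00000101361, chromosome 20, 2652593 to 2658393, plus strand), had 182, 155 and 179 CPM with EGF and 96.2, 93.1 and 99.8 CPM with erlotinib. Every erlotinib library was below every EGF library, with a log2 fold change of -0.84 (SE 0.09, edgeR adjusted p = 3.55e-06). Its partner NOP58 fell by 0.72 and FBL by 0.56 on the log2 scale. In the box H/ACA particle, which turns uridine into pseudouridine, the largest change was that of NOP10 (ENSG00000182117, chromosome 15, 34339159 to 34343180, minus strand), with 52.0, 67.8 and 58.5 CPM with EGF and 38.4, 29.9 and 32.2 CPM with erlotinib. The groups did not overlap, and the log2 fold change was -0.83 (SE 0.12, edgeR adjusted p = 3.48e-05). GAR1 fell by 0.56, the pseudouridine synthase DKC1 by 0.53 and NHP2 by 0.44 on the log2 scale.

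The 3 nucleolar phosphoproteins differed in size of change. NOLC1 (ENSG00000166197, chromosome 10, 102152176 to 102163871, plus strand), a chaperone of snoRNPs, had 185, 153 and 175 CPM with EGF and 69.2, 82.8 and 84.2 CPM with erlotinib. No erlotinib library reached the EGF range, and the log2 fold change was -1.12 (SE 0.10, edgeR adjusted p = 3.26e-07). NCL fell from 1123, 1015 and 1080 CPM to 539.5, 597 and 639.5 CPM, by 0.86 on the log2 scale. NPM1 had 2311, 2625 and 2242 CPM with EGF and 2012, 2141 and 2089 CPM with erlotinib. These NPM1 libraries did not overlap either, but the difference of -0.20 (SE 0.11) was not called (edgeR adjusted p = 0.137). With offsets for GC content and gene length it was -0.29 and was called.

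Among the small subunit factors the called falls lay between 0.38 and 0.69 on the log2 scale. TSR1 (ENSG00000167721, chromosome 17, 2322396 to 2336657, minus strand), which accompanies the late small subunit particle, had 73.7, 77.5 and 75.8 CPM with EGF and 47.5, 46.6 and 46.7 CPM with erlotinib. The replicates lay close together within both groups and the groups stood apart, with a log2 fold change of -0.69 (SE 0.08, edgeR adjusted p = 5e-06). RRP9, a protein of the U3 snoRNP, BYSL and NOP14 followed with -0.65, -0.64 and -0.62. The other called genes of this group were RRP12 (-0.55), LTV1 (-0.54), WDR43 (-0.48), the rRNA acetyltransferase NAT10 (-0.46), UTP4 and PNO1 (both -0.40), DDX10 (-0.39) and UTP20 (-0.38). UTP20 lost its call without erlotinib replicate 1 (-0.27, edgeR adjusted p = 0.0527) and without EGF replicate 3 (-0.33, edgeR adjusted p = 0.0583). PNO1 lost its call without erlotinib replicate 3 (-0.34). HEATR1 (-0.16), NOB1 (-0.16), the endonuclease of the last cut of the small subunit rRNA, and WDR75 (-0.19) were not called, and WDR75 was called at -0.30 with GC and length offsets.

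The large subunit factors held 5 of the 7 called genes whose log2 fold change was under -1. BOP1 (ENSG00000261236, chromosome 8, 144262045 to 144291438, minus strand), a scaffold of the PeBoW complex that matures the large subunit rRNA, had 63.8, 79.9 and 64.4 CPM with EGF and 36.1, 25.7 and 28.3 CPM with erlotinib. The groups did not overlap, and BOP1 fell by 1.21 on the log2 scale (SE 0.13, edgeR adjusted p = 2.35e-06). Its partners in the complex, chosen here after their values were seen, fell less, PES1 by 0.35 and WDR12 by 0.37 on the log2 scale. PPAN fell by 1.17, RRS1, which takes part in adding the 5S particle, by 1.15, and MRTO4, a factor of the late large subunit particle, by 1.05. NOP2 fell from 0.571, 0.446 and 0.627 CPM to 0.264, 0.122 and 0.317 CPM, a log2 fold change of -1.18 (SE 0.43, edgeR adjusted p = 0.0344). That call rests on 3 to 9 counts per erlotinib library and was lost without erlotinib replicate 1 (-1.27), erlotinib replicate 2 (-0.91), EGF replicate 1 (-1.15) or EGF replicate 3 (-1.07), and with DESeq2 (-1.21). NOP16 (-0.85), SURF6 (-0.76), the GTPases GNL2 (-0.64) and GNL3 (nucleostemin, -0.51), GRWD1 (-0.56), RRP1B (-0.39) and NLE1 (-0.34) also fell, and NIP7 (-0.18) was not called. NLE1 lost its call without erlotinib replicate 2 (-0.30) or 3 (-0.31), without EGF replicate 2 (-0.26) and with GC and length offsets (-0.23). PES1 stayed called at -0.23 with these offsets.

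A further 165 genes of the pathway outside the 50 were described in the same way, and 164 of them were found in the table. Their mix of roles differs from that of the 50. They include 24 exosome and RNase MRP genes, a role absent from the 50, and 19 genes of RNA polymerase III and its factors. Of the 163 tested, 76 (46.6%) were called lower with erlotinib and 9 (5.52%) higher, and their median log2 fold change was -0.25. The large subunit factors had 34 of 53 called lower, the small subunit factors 22 of 47 and the exosome and RNase MRP genes 10 of 24. The RNA polymerase III genes had 6 of 19 called lower, the RNA polymerase I genes 2 of 9 and the snoRNP genes 2 of 11. The largest falls were those of PUM3 (-0.97), a nucleolar RNA-binding protein, CCDC86 (-0.97) and POP1 (-0.94), a protein of RNase P and RNase MRP. The largest rises were those of POLR3GL (0.95), TAF1B (0.37), another SL1 subunit, and RSL24D1 (0.37). RSL24D1 lost its call without erlotinib replicate 2 (0.33) or 3 (0.36), without EGF replicate 1 (0.29) or 3 (0.32), and with GC and length offsets (0.23). TAF1B lost it without erlotinib replicate 2 (0.23) or EGF replicate 3 (0.36), and was 0.25 with these offsets.

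POLR3GL and POLR3G encode alternative versions of 1 subunit of RNA polymerase III, and they moved in opposite directions with erlotinib. POLR3G had 8.78, 10.1 and 9.41 CPM with EGF and 4.96, 6.16 and 5.77 CPM with erlotinib. POLR3GL had 6.61, 5.83 and 5.17 CPM with EGF and 9.74, 12.6 and 11.7 CPM with erlotinib. Neither gene's groups overlapped, and edgeR adjusted p was 0.000278 for the fall of POLR3G and 0.000141 for the rise of POLR3GL. Per exonic length, POLR3G had 2.35 and POLR3GL 3.24 CPM per kb with EGF, against 1.40 and 6.27 CPM per kb with erlotinib. Which gene stands higher with EGF thus depends on the annotated lengths.

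Transcripts that are known to follow EGFR signalling moved beside the 50 genes. DUSP6, a phosphatase gene induced by ERK activity, had 11.9, 13.4 and 12.7 CPM with EGF and 0.587, 0.408 and 0.246 CPM with erlotinib, and all 6 transcripts of this kind were called lower. MYC had 151, 134 and 135 CPM with EGF and 82.9, 73.4 and 79.8 CPM with erlotinib, a log2 fold change of -0.83 (SE 0.09, edgeR adjusted p = 1.5e-06). Of the other genes that pair with MAX, MXD4, MXD3 and MXI1 rose by 0.79, 0.61 and 0.49 on the log2 scale and MXD1 fell by 1.03. The part of these transcripts in the change of the 50 genes was not tested.

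MYC binds the sequence CACGTG, the canonical E-box, which reads the same on both strands. It was searched in RefSeq promoters of the build GRCh38.p14, a single window per gene, each running from 250 bases before to 50 bases after a listed start. They were at hand for 42 of the 50 genes (not NOP58, NOLC1, POLR1E, POLR3G, RRP12, BOP1, RRS1 and RRP1B). The listed start can lie inside the gene as annotated here. The windows of UBTF and TAF1D, both on the minus strand, reach to 44219925 and 93741745, and the annotated genes to 44221626 and 93784391. The E-box was present in 18 of the 42 (42.9%), against 7.28% of all 27305 promoters, 9.39% of the 11861 promoters of genes with at least 10 counts in 3 libraries and 23.9% of 142 other pathway promoters. In 17 of the 18 an E-box began between 20 bases before and 50 bases after the start. The motif CCGGAAG, bound by ETS factors, searched on both strands, was in 38.1% of the 42 against 17.9% of promoters of expressed genes, GGGCGG in 76.2% against 67.2%, the NRF1 motif in 9.52% against 2.14% and TATAAA in 4.76% against 6.33%. These are matches of letters in a window and not evidence of binding. The first pair below are genes that fell with erlotinib and hold an E-box, MYBBP1A beginning 27 and MRTO4 14 bases after the start. NOP10 holds E-boxes 170 and 11 bases before the start, and NOP56, UBTF and TAF1D hold none and are shown for contrast, NOP56 having fallen and UBTF and TAF1D not being called. Capitals mark the E-boxes.
MYBBP1A (chr17:4555335-4555634, minus strand): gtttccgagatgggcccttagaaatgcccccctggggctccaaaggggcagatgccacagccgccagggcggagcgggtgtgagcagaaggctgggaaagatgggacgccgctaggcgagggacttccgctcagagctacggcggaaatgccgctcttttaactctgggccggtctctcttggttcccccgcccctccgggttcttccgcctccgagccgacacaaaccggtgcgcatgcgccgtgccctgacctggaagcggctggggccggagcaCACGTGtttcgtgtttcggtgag
MRTO4 (chr1:19251555-19251854, plus strand): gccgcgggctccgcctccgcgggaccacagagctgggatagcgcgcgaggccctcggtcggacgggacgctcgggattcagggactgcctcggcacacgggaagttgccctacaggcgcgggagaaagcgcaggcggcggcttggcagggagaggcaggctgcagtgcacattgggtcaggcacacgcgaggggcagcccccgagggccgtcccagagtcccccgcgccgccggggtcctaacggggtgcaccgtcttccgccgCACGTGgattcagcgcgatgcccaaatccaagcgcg
NOP10 (chr15:34343087-34343386, minus strand): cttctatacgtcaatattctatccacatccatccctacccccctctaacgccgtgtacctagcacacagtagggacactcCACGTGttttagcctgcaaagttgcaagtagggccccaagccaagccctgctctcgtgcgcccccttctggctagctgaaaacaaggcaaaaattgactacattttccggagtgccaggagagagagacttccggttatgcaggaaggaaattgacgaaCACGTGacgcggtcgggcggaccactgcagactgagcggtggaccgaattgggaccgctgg
NOP56 (chr20:2652382-2652681, plus strand): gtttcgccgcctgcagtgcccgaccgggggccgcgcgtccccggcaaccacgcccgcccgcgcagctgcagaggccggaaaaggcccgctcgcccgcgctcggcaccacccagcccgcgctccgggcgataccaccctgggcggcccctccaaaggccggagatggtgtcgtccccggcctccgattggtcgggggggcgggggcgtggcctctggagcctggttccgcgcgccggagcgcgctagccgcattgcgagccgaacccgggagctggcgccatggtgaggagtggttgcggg
UBTF (chr17:44219626-44219925, minus strand): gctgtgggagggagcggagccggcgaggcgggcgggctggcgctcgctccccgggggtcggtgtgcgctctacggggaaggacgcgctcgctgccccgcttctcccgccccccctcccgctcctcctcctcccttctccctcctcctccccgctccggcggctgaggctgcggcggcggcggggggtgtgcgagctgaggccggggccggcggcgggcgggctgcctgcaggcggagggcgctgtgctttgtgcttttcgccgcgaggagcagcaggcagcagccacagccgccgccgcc
TAF1D (chr11:93741446-93741745, minus strand): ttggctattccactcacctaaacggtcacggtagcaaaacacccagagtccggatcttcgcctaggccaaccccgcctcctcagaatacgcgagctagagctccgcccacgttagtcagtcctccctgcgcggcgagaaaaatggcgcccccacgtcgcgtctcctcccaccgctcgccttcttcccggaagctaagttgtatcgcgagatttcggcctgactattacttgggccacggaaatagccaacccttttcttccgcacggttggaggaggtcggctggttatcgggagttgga

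With erlotinib, all 18 genes with an E-box were called lower and their log2 fold changes ran from -1.65 to -0.34 with a median of -0.59. Of the 24 without one, 16 were called lower, and their median was -0.42. The called falls without an E-box included PPAN (-1.17), NCL (-0.86), NOP16 (-0.85) and NOP56 (-0.84), so the largest changes were found with and without it. Over all tested genes with a promoter, 27.2% of 1095 with an E-box and 22.1% of 10326 without were called lower. The 8 genes with no promoter sequence were all called lower. With cSNX1.3 the medians were 0.23 with and 0.12 without an E-box, and 1 of the 18 and 2 of the 24 were called higher. Over all tested genes with a promoter, 3.2% with and 3.67% without an E-box were called higher with cSNX1.3, and the medians were 0.014 and 0.00169.

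**Figure D3:**
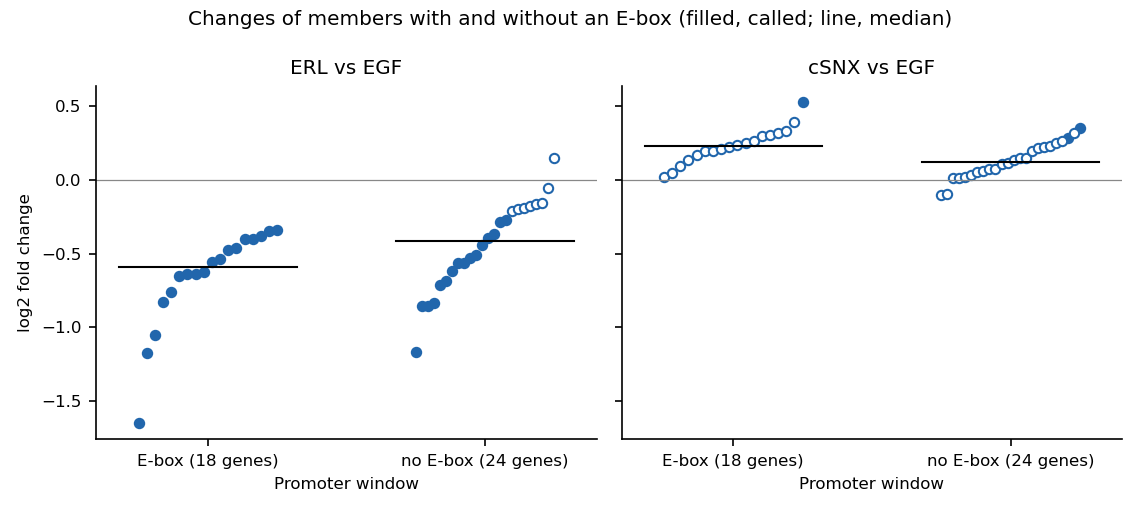
Log2 fold change of the 42 genes with a promoter sequence, split by the presence of CACGTG, in erlotinib vs. EGF (ERL) and cSNX1.3 vs. EGF (cSNX), with filled points for called genes and a line at the median. All 18 points with an E-box are called lower with erlotinib, against 16 of 24 without.

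cSNX1.3 moved the 50 genes little, and those it did move rose. In cSNX1.3 vs. EGF, 5 were called higher and 0 lower, where 3.38% of the 15738 tested genes were called higher and 2.69% lower. At an unadjusted p under 0.05 there were 22 higher and 0 lower, where 3044 of the 15738 tested genes passed in either direction. DESeq2 called 8 higher and 0 lower, against 675 higher and 492 lower over all tested genes. The median log2 fold change was 0.20 (0.00 over all tested genes), and 46 of the 50 values were above 0. The exceptions were UBTF and RRN3 (both -0.10), RRS1 (-0.09) and RRP1B, which lay just below 0. The count of 5 was 2 without cSNX1.3 replicate 1 or 2, 1 without EGF replicate 1 or 3, and 3 with the replicate number as a block. It was 12 with offsets for GC content and gene length, where 840 of all tested genes were called higher.

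The 5 called genes were POLR3G, UTP20, BOP1, NOP16 and TSR1, and all 5 were called lower with erlotinib, as were 42 of the 50. Both comparisons use the same EGF libraries, so these directions are not independent. The share called lower with erlotinib among all genes called higher with cSNX1.3 was not computed. POLR3G (chromosome 5, 90471748 to 90514557, plus strand) rose to 15.001, 12.583 and 14.278 CPM with cSNX1.3 from the EGF values given above, a log2 fold change of 0.56 (SE 0.13, edgeR adjusted p = 0.0125). UTP20 (chromosome 12, 101280105 to 101386618, plus strand) had 22.6, 20.7 and 24.1 CPM with EGF and 31.9, 32.4 and 32.8 CPM with cSNX1.3. The cSNX1.3 libraries were close to each other and all above the EGF libraries, with a log2 fold change of 0.53 (SE 0.11, edgeR adjusted p = 0.00871). BOP1 had 108, 91.1 and 87.1 CPM with cSNX1.3, a log2 fold change of 0.46 (SE 0.13, edgeR adjusted p = 0.0408). NOP16 rose by 0.35 and TSR1 by 0.28 on the log2 scale. BOP1 lost its call without cSNX1.3 replicate 1 (0.36) or 2 (0.48) or EGF replicate 1 (0.40) or 3 (0.41), and POLR3G without EGF replicate 1 (0.51) or 3 (0.56). NOP16 lost its call without cSNX1.3 replicate 1 (0.29) or 2 (0.32), without EGF replicate 1 (0.37), 2 (0.36) or 3 (0.32), and with the replicate number as a block (0.35). TSR1 lost its call without cSNX1.3 replicate 1 (0.24), 2 (0.30) or 3 (0.30), without EGF replicate 1 (0.26), 2 (0.30) or 3 (0.28), and with the block (0.28). UTP20 was called in each fit that left out 1 library.

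The highest values that were not called were those of NOP10 (0.39, edgeR adjusted p = 0.0546), NOP2 (0.33) and PPAN (0.32). NOP10 was called without EGF replicate 2 (0.50), and NOP2 and PPAN had wide standard errors (0.37 and 0.19). Of the 163 other pathway genes tested, 6 (3.68%) were called higher and 0 lower, a share near the 3.38% of all genes, with RIOK3 (0.49), a kinase of the small subunit particle, CCDC86 (0.43) and PUM3 (0.37) the largest. RIOK3 lost its call without EGF replicate 1 (0.43) or 3 (0.46), and PUM3 without cSNX1.3 replicate 3 (0.30) or EGF replicate 1 (0.37), 2 (0.36) or 3 (0.36). MYC had 138.2, 130.6 and 134.1 CPM with cSNX1.3 and was not called (-0.06). DUSP6 rose to 22.52, 19.04 and 18.05 CPM, a log2 fold change of 0.65 that was not called without EGF replicate 1 (0.60).

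**Figure D4:**
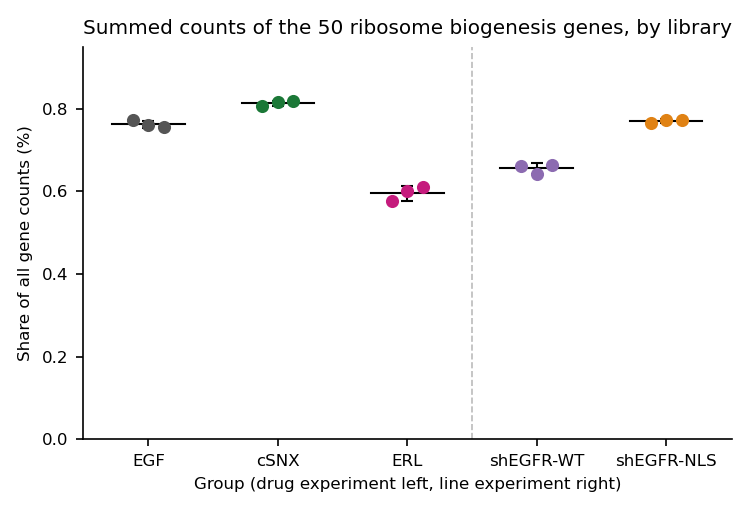
Summed counts of the 50 genes as a percentage of all gene counts in each library, with the mean and SD of each group of 3. The share was 0.576% to 0.610% with erlotinib, 0.756% to 0.773% with EGF and 0.807% to 0.818% with cSNX1.3, and in the lines it was 0.641% to 0.664% in WT and 0.766% to 0.774% in ΔNLS.

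Set side by side, the summed counts of the 50 genes took 0.763% ± 0.00851 of all counts with EGF alone, 0.596% ± 0.0179 with erlotinib and 0.814% ± 0.00614 with cSNX1.3 (SD over 3 libraries). The groups of libraries did not overlap in this share. It weighs the most abundant genes most: in EGF replicate 1, NPM1 held 56615, NCL 27510 and FBL 13893 of the 187703 counts summed. In the direct contrast of the drugs, 45 of the 50 were called higher with cSNX1.3 than with erlotinib and 0 lower, where 27.6% of all tested genes were higher and 28.5% lower. At an unadjusted p under 0.05 there were 47 higher and 0 lower, where 9551 of the 15738 tested genes passed in either direction. DESeq2 called 45 higher and 0 lower, against 4399 higher and 4260 lower over all tested genes. The median difference was 0.76 on the log2 scale. MYBBP1A stood at 61.7, 60.8 and 63.9 CPM with cSNX1.3, a difference of 1.94 (SE 0.10, edgeR adjusted p = 4.12e-10). BOP1 differed by 1.67 and NOP2 by 1.51. Among the smaller differences, HEATR1 lost its call without cSNX1.3 replicate 1 (0.23) or erlotinib replicate 1 (0.27) or 3 (0.23), and NOB1 without cSNX1.3 replicate 1 (0.22) or erlotinib replicate 2 (0.27) or 3 (0.28). NPM1 lost it without cSNX1.3 replicate 1 (0.22) or 2 (0.28) or erlotinib replicate 1 (0.25), 2 (0.30) or 3 (0.28). POLR1B lost it without cSNX1.3 replicate 1 (0.14) or 3 (0.27), without erlotinib replicate 1 (0.21), 2 (0.26) or 3 (0.22), and with the block (0.23). The 5 genes not called were NIP7 (0.25, called at 0.33 without cSNX1.3 replicate 3), WDR75 (0.20, called at 0.36 with GC and length offsets), RRN3 (0.17, called at 0.27 with these offsets), UBTF (-0.04) and TAF1D (-0.09). Both drug comparisons use the same EGF libraries, so their values are not independent of each other.

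Of the 163 other pathway genes, 93 (57.1%) were called higher and 7 (4.29%) lower in this direct contrast. CCDC86 (1.40), PUM3 (1.34) and GTPBP4 (1.18), a GTPase of the large subunit particle, differed most. POLR3GL (-1.01), TAF1B (-0.41) and GTF3C4 (-0.38), a subunit of the TFIIIC factor, were lower with cSNX1.3. TAF1B was -0.23 with GC and length offsets and -0.27 without erlotinib replicate 2, and was called in both.

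**Figure D5:**
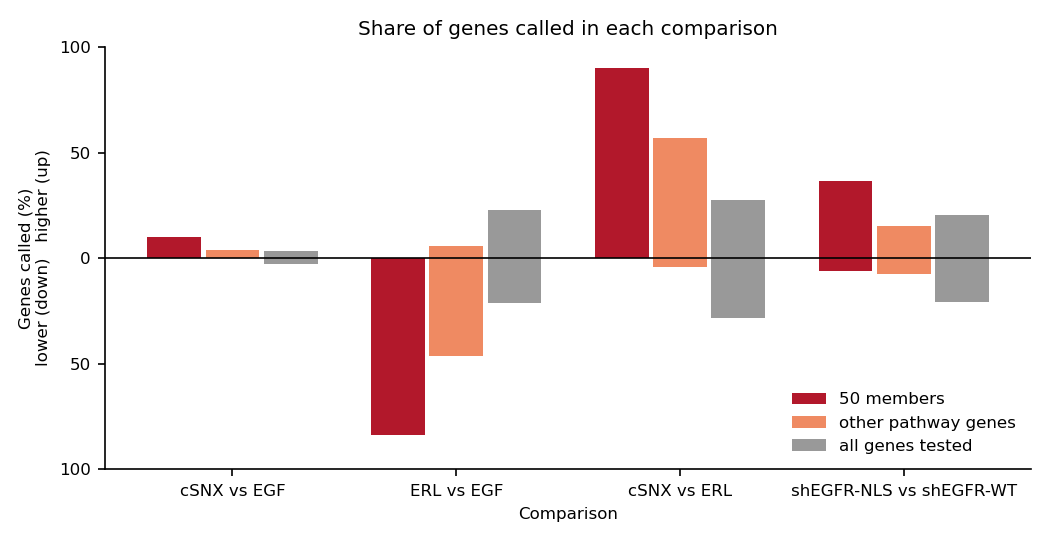
Percentage of genes called higher (up) and lower (down) among the 50 genes, the other pathway genes and all tested genes in each comparison. With erlotinib 84% of the 50 were called lower against 46.6% of the other pathway genes and 21.2% of all genes, and in the direct contrast 90.0% were called higher against 57.1% and 27.6%. The other pathway genes have a different mix of roles from the 50.

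In the lines, the 50 genes split. In ΔNLS vs. WT, 49 genes were tested, and NOP2, with 3 to 15 counts per library, was not. Of the 49, 18 were called higher and 3 lower, where 20.4% and 21% of the 15805 tested genes had these calls. For the 49 genes the median log2 fold change was 0.08 (0.01 over all tested genes), and it was 0.14 without ΔNLS replicate 2. The summed share of counts was 0.656% ± 0.0124 in WT and 0.771% ± 0.00441 in ΔNLS (SD, n = 3 each). This share, too, weighs abundant genes most. In WT replicate 1, NPM1 held 70538 and NCL 32031 of the 199945 counts summed, and neither gene was called. By role, 7 of 14 large subunit factors, 4 of 10 polymerase genes and factors, 2 of 3 box C/D proteins and 2 of 4 box H/ACA proteins were called higher, and the 15 small subunit factors had 2 higher and 2 lower.

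The largest rise was that of PPAN (ENSG00000130810, chromosome 19, 10106362 to 10112012, plus strand), a factor of the early large subunit particle, with 12.4, 9.29 and 12.4 CPM in WT and 15.6, 17.5 and 19.8 CPM in ΔNLS. The groups did not overlap, and the log2 fold change was 0.63 (SE 0.12, edgeR adjusted p = 0.000596). POLR3G had 5.20, 4.74 and 4.39 CPM in WT and 5.79, 7.79 and 6.59 CPM in ΔNLS, a log2 fold change of 0.49 that lost its call without ΔNLS replicate 2 (0.38, edgeR adjusted p = 0.0606). NOP56 had 133, 124 and 142 CPM in WT and 184, 183 and 193 CPM in ΔNLS. All ΔNLS libraries were above all WT libraries, and NOP56 rose by 0.49 on the log2 scale (SE 0.07, edgeR adjusted p = 3.53e-05).

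DKC1 (chromosome X, 154762742 to 154777689, plus strand) had 211, 207 and 206 CPM in WT and 297, 293 and 285 CPM in ΔNLS. The libraries agreed closely within each line, and the log2 fold change was 0.49 (SE 0.06, edgeR adjusted p = 1.58e-05). NOLC1 rose from 124, 104 and 125 to 147, 152 and 144 CPM (log2 fold change 0.33), and NOP14 from 35.9, 28.2 and 35.7 to 44.5, 40.9 and 41.1 CPM (0.34). The other called rises were those of MYBBP1A (0.48), NHP2 and DDX21 (both 0.38), NLE1 (0.37), NOP16 and RRP1B (both 0.36), SURF6 (0.34), FBL (0.32), UBTF (0.29), MRTO4 and BOP1 (both 0.26) and BYSL (0.25). The BOP1 libraries of the lines overlapped.

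Several of the smaller rises lost their call in fits that left out 1 library. BOP1 lost its call without ΔNLS replicate 1 (0.16) or 3 (0.28), without WT replicate 1 (0.21) or 3 (0.24), with the replicate number as a block (0.25) and with GC and length offsets (0.12). BYSL lost it without ΔNLS replicate 1 (0.16) or 3 (0.24), without WT replicate 1 (0.26) or 3 (0.24) and with the block (0.25). MRTO4 lost it without ΔNLS replicate 1 (0.18) or 3 (0.29) or WT replicate 2 (0.19) or 3 (0.26). SURF6 lost it without ΔNLS replicate 1 (0.33) or 3 (0.31) and with GC and length offsets (0.30). UBTF, a factor that opens the ribosomal DNA, lost it without ΔNLS replicate 1 (0.31), 2 (0.30) or 3 (0.27) and with these offsets (0.22). Without WT replicate 2, SURF6 (0.20) and UBTF (0.16) stayed called at smaller values. With all 15 libraries in the fit, BOP1 (0.26), BYSL (0.25), MRTO4 (0.26), SURF6 (0.34) and UBTF (0.29) were not called. The rises of PPAN, NOP56, DKC1, MYBBP1A, NHP2, DDX21, NLE1, NOP16, RRP1B, NOP14, NOLC1 and FBL were called in each fit that left out 1 library.

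The 3 genes called lower in ΔNLS were NAT10, LTV1 and NOP10. NAT10 (ENSG00000135372, chromosome 11, 34105617 to 34147670, plus strand) had 124, 133 and 129 CPM in WT and 106.6, 94.96 and 103.0 CPM in ΔNLS. The groups did not overlap, and NAT10 fell by 0.34 on the log2 scale (SE 0.07, edgeR adjusted p = 0.000877). LTV1, a factor of the late small subunit particle, had 16.6, 16.1 and 16.6 CPM in WT and 11.7, 15.2 and 13.2 CPM in ΔNLS, a log2 fold change of -0.30 (SE 0.10, edgeR adjusted p = 0.0306). It lost its call without ΔNLS replicate 1 (-0.20) or 3 (-0.29), without WT replicate 1 (-0.29) or 3 (-0.29), with the replicate number as a block (-0.30) and with GC and length offsets (-0.18). NOP10 had 63.9, 71.7 and 60.9 CPM in WT and 57.9, 49.5 and 55.3 CPM in ΔNLS, a log2 fold change of -0.27 (SE 0.08, edgeR adjusted p = 0.0142). Its call was lost without ΔNLS replicate 2 (-0.21) and with GC and length offsets (-0.16).

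The remaining 28 tested genes were not called, and their values lay between those of HEATR1 (-0.17), NIP7 (-0.19) and POLR1C (-0.18) and those of GNL3 and POLR1A (both 0.19). NCL (0.07) and NPM1 (0.17) were among them. Leaving out 1 library brought in NPM1 (0.23 without WT replicate 2), POLR1A (0.25 without WT replicate 3), GNL3 (0.23 without ΔNLS replicate 1) and POLR1C (-0.27 without ΔNLS replicate 1). GC and length offsets brought in NPM1 and GNL3 (both 0.29), WDR12 (0.21), TAF1D (0.16), GRWD1 (-0.19) and NIP7 (-0.19). Of the 42 genes called lower with erlotinib, 17 were called higher in ΔNLS, 3 lower and 21 neither, and NOP2 was not tested there. This split was not computed over all genes called lower with erlotinib, so it has no background share. UBTF was called higher in ΔNLS only. Of the 17 tested genes with an E-box, 7 were called higher in ΔNLS and 3 lower, and of the 24 without one 7 were called higher and 0 lower. Over all tested genes with an E-box, 22.5% were called higher and 19.6% lower. Of the 163 other pathway genes tested, 25 (15.3%) were called higher and 12 (7.36%) lower, against 20.4% and 21% of all tested genes. NOL12 (1.01), POP7 (0.61) and TBP (0.54) rose most and RIOK3 (-0.93), the exosome nuclease DIS3 (-0.54) and the export adaptor NMD3 (-0.47) fell most, and NOL12 lost its call without ΔNLS replicate 1 (0.93) or WT replicate 3 (0.72). MYC had 115, 99.2 and 112 CPM in WT and 122, 116 and 117 CPM in ΔNLS and was not called (0.12), while EGFR rose by 0.37.

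The effect of ΔNLS over WT was set against the effect of cSNX1.3 over EGF by an interaction term in a fit of all 15 libraries, which asks whether the nuclear localization mutant and the peptide differ in their effects. Of the 50 genes, 2 had a higher and 3 a lower effect in ΔNLS, where 11.3% and 11.8% of the 16524 tested genes were called higher and lower. NOP56 (0.14 with cSNX1.3 and 0.49 in ΔNLS) had a difference of 0.35 (SE 0.12, edgeR adjusted p = 0.0341) and RRP1B, a nucleolar partner of protein phosphatase, of 0.37 (SE 0.11, edgeR adjusted p = 0.02). RRP1B had 104, 93.3 and 106 CPM with EGF, 92.4, 104 and 106 CPM with cSNX1.3, 76.5, 67.1 and 79.0 CPM in WT and 97.4, 92.0 and 97.1 CPM in ΔNLS. NOP10, NAT10 and UTP20 had differences of -0.66 (SE 0.16, edgeR adjusted p = 0.00346), -0.54 (SE 0.11, edgeR adjusted p = 0.00147) and -0.57 (SE 0.14, edgeR adjusted p = 0.00431). All 3 had values above 0 with cSNX1.3 and below 0 in ΔNLS. UTP20 had 17.8, 16.3 and 18.2 CPM in WT and 17.0, 17.2 and 16.7 CPM in ΔNLS.

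The count of 2 higher effects was 0 without EGF replicate 1, EGF replicate 3 or WT replicate 2, and 1 without WT replicate 1 or without any 1 of the ΔNLS replicates. The NOP56 call was lost without ΔNLS replicate 1 (0.36), 2 (0.36) or 3 (0.32), EGF replicate 1 (0.31) or 3 (0.32), WT replicate 1 (0.35) or 2 (0.30) or cSNX1.3 replicate 1 (0.28), and the RRP1B call without EGF replicate 1 (0.36) or 3 (0.34), WT replicate 2 (0.30) or cSNX1.3 replicate 1 (0.32). The 3 lower effects were called in each of these fits. Without cSNX1.3 replicate 1, DKC1 (0.32) and NHP2 (0.45) were called higher, and without EGF replicate 2, UBTF (0.51) was called higher and HEATR1 (-0.37) lower. DESeq2 called 6 lower effects and 3 higher ones, against 2111 lower and 1944 higher over all 16524 tested genes. Among the 163 other pathway genes tested, 5 effects (3.07%) were higher and 10 (6.13%) lower, against 11.3% and 11.8% of all tested genes. They were led by TBP (0.61), POP7 (0.49) and C1orf131 (0.47) and by RIOK3 (-1.42), DIS3 (-0.68) and WDR36 (-0.64). POP7 lost its call without ΔNLS replicate 3 (0.45). The drug and the line cells differ in more than the treatment, so a difference between the effects cannot be told apart from a difference between the cells.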

How the data were processed

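The libraries, 15 in all with 3 in each of 5 groups, were made from polyadenylated RNA of MDA-MB-468 cells. According to the study's methods and the submitters' processing notes, the authors trimmed reads with TrimGalore 0.6.7, aligned them to GRCh38 with STAR 2.7.9a and counted read pairs per gene with featureCounts without using strand, so overlapping genes on opposite strands cannot be told apart. The values used are the raw counts per gene as deposited by the authors, with no normalization. The annotation release was not given in the sources used here, and 61399 of 61552 gene IDs matched GENCODE 44, from which gene positions and lengths were taken.

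Genes with enough counts by edgeR's filter (filterByExpr) were normalized by TMM and fitted with edgeR 4.0.16 in R 4.3.3 (quasi-likelihood test, Benjamini-Hochberg adjustment over all genes tested, threshold 0.05). The 9 drug libraries were fitted together, the 6 line libraries together, and all 15 for the difference of effects. CPM is on the TMM scale of each experiment, so levels are not compared between them. The code was tested on simulated data. Alternatives were DESeq2 1.42.0, its size factors, other filters, other sets of libraries, a replicate block, GC and length offsets, a threshold of 0.01 and leaving out each library.

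The 50 genes and the other gene lists were chosen with earlier results of these data known. Each of the 50 is named. Replicate values go to the 3 largest called rises and falls of a comparison with groups that do not overlap, to the largest called change of each role with erlotinib and in ΔNLS, to the highest and lowest levels per length, and to EGFR, MYC and DUSP6. Of the other pathway genes, the 3 largest called rises and falls are named. A few other genes were named after their values were seen.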

Additional observations from a re-analysis of the deposited data

Results flagged for a closer look

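For 5 of the 50 genes, the effect of ΔNLS over WT differed from the effect of cSNX1.3 over EGF by the interaction test, which is 10% of the 50 against 23.1% of all 16524 tested genes. The difference, ΔNLS effect minus cSNX1.3 effect on the log2 scale, was -0.535 for NAT10, -0.569 for UTP20, -0.658 for NOP10, 0.348 for NOP56 and 0.371 for RRP1B. The effects come from different cells and experiments, which cannot be told apart from the treatments. With 3 libraries in a group, no library was tested as an outlier, but replicates were not equally alike. The chi-square of counts per degree of freedom was 3.58 for EGF replicates 1 and 3. It was 18.8 and 24.4 for the pairs with EGF replicate 2. For cSNX1.3 it was 5.86 for replicates 2 and 3, and 15.6 and 22.5 for the pairs with replicate 1. For WT it was 2.69 for replicates 1 and 3, and 15.8 and 19.2 for the pairs with replicate 2. For erlotinib no pair was as close: it was 24.54 for replicates 1 and 2, 15.55 for 1 and 3 and 12.35 for 2 and 3. For ΔNLS it was 4.715 for replicates 2 and 3, and 12.12 and 6.827 for the pairs with replicate 1.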

How the results depend on the processing

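No called result turned its direction. Of the alternatives for single genes, 4582 had the same outcome as the main fit, which includes genes called in neither. In 173 a call was lost and in 71 a call was gained. The count of 5 genes called higher with cSNX1.3 was 8 with DESeq2, 8 with all 15 libraries in the fit, 3 with the replicate block, 12 with GC and length offsets, 10 with both block and offsets, 1 at an adjusted p under 0.01 and 1 to 4 when 1 library was left out, and the median ran from 0.153 to 0.213. In that comparison the calls over all genes, 532 higher and 424 lower, were 840 and 758 with GC and length offsets, 282 and 188 at an adjusted p under 0.01, 745 and 699 with all 15 libraries, and 295 and 236 without EGF replicate 1. In erlotinib vs. EGF, leaving out 1 library gave 39 to 40 genes called lower and a median from -0.57 to -0.509. In cSNX1.3 vs. erlotinib the median of 0.764 was 0.707 with GC and length offsets and 0.705 with the block added, and leaving out 1 library gave 41 to 45 genes and medians from 0.72 to 0.796. In ΔNLS vs. WT the median of 0.0793 was 0.0957 with all 15 libraries, 0.128 with GC and length offsets, 0.129 with the block added and 0.07 to 0.139 without 1 library. There the 3 genes called lower were 1 with all 15 libraries, 1 with block and offsets, 1 at an adjusted p under 0.01 and 2 to 3 without 1 library, and the 18 called higher were 13 to 18. For the difference of effects, the 2 higher genes were 4 with GC and length offsets, 4 with the block added, 0 at an adjusted p under 0.01 and 0 to 3 without 1 library. The 3 lower ones were 6 with DESeq2 and 3 to 4 without 1 library, and the median ran from -0.0884 to -0.0104. The causes were not tested. Whether replicate numbers pair the libraries is not stated in the labels. Same-numbered libraries had correlations of deviations from their group mean from -0.482 to 0.506 in the drug experiment and from -0.178 to 0.0146 in the lines. With means of 3 libraries, these values cannot settle whether libraries were paired. The replicate block gave 41 genes called lower with erlotinib and 16 higher and 2 lower in ΔNLS. Between drug libraries of unlike number, EGF replicate 2 had correlations of 0.704 with cSNX1.3 replicate 1 and -0.634 with cSNX1.3 replicate 3. The few counts of NOP2, 3 to 20 per library, limit what its values can show.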
